A study of Mus musculus with 6 samples.

Results

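Plasminogen activation was described through 7 genes of mouse C2C12 myoblasts, chosen by name from a deposited table of FPKM values, a measure of transcript level scaled by transcript length and by the mapped fragments of each library. The genes were Plau and Plat, the activator receptor gene Plaur, the serpin genes Serpine2, Serpinb2 and Serpinf1, and the clearance receptor gene Lrp1. All 7 were found among the 22375 rows of the table, 1 row each, and all 7 passed the filter at a mean of 0.5 FPKM that left 11593 genes for testing. C2C12 cells are mouse myoblasts of an established line, which proliferate singly and can fuse into myotubes. The CON group was 3 libraries of C2C12 cells without stretching, and the 4H group was 3 libraries of the same cells stretched cyclically for 4 h at 15% elongation. All cells came from the same purchased line and were grown in serum. Before stretching, cells were plated near confluence on elastic plates coated with poly-lysine. The sources used here do not say outright whether the CON cells were plated in the same way. The frequency of the stretch is not given in the sources used here, and the shorter stretch times of the study were not analysed here. The study compared these groups to ask how mechanical overload of muscle cells changes integrin and fibrosis genes.

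The plasminogen system turns a circulating proenzyme, plasminogen, into plasmin, a broad protease that dissolves fibrin, cleaves matrix glycoproteins and activates some growth factors and metalloproteinases. Urokinase (Plau) does so at the cell surface, bound to its receptor uPAR (Plaur), and tissue plasminogen activator (Plat) does so mainly on fibrin. Both are blocked by serpins, suicide inhibitors that trap a protease in a covalent complex, and these complexes are taken up by the endocytic receptor Lrp1. In muscle, urokinase is known for its part in the regeneration of injured fibers and in myoblast migration.

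The promoter sequences of the serpin genes Serpinb2, Serpine2 and Serpinf1 and of the receptor gene Plaur are shown as a description, chosen with the results known. The sequence of Lrp1 is not shown. How the motifs relate to the direction of change was not tested. RefSeq windows (GRCm38.p6, 250 bases before to 50 bases after a RefSeq transcript start, written 5′ to 3′ on the strand of the gene) were found for 5 of the 7 genes, all but Plau and Plat. Capitals mark each match to AP-1 (TGANTCA), CRE (TGACGTCA), the TEAD core (GGAATG), the TATA box (TATAAA) or the GC box (GGGCGG) on either strand, and neighbouring GC boxes run into each other. The windows lie at chr1:107511173-107511472 on the plus strand for Serpinb2, chr7:24462233-24462532 on the plus strand for Plaur, chr1:79858616-79858915 on the minus strand for Serpine2 and chr11:75422574-75422873 on the minus strand for Serpinf1. The start used for Serpine2 lies inside the gene span that GENCODE M21 gives, downstream of its 5′ end.
Serpinb2: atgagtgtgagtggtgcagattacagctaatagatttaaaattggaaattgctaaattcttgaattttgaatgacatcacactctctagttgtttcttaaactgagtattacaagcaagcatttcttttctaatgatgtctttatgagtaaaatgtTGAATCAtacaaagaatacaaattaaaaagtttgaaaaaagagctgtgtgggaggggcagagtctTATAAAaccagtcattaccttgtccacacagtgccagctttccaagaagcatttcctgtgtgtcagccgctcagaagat
Plaur: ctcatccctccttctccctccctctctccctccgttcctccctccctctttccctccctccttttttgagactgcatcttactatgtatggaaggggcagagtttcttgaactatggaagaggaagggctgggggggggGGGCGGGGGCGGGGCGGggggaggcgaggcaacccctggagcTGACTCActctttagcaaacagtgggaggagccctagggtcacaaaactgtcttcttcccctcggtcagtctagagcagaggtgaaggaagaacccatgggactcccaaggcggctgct
Serpine2: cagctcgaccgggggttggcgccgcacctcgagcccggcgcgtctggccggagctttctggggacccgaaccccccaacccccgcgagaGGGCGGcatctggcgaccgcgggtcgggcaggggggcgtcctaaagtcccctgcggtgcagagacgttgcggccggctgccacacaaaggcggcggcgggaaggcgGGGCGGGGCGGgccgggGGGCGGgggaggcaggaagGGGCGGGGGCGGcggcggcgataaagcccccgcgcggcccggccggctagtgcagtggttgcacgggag
Serpinf1: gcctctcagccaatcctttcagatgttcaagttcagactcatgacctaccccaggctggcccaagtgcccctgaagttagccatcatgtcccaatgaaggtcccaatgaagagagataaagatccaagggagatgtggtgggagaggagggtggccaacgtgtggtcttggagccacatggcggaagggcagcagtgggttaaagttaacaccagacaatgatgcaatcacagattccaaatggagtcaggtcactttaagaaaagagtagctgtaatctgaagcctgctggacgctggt
The window of Serpinb2 held an AP-1 match, TGAATCA, that began 94 bases before the start, and a TATA box that began 29 bases before it. A second RefSeq window of Serpinb2, around a start farther downstream, held these same matches. The window of Plaur held an AP-1 match, TGACTCA, 69 bases before the start, and 3 GC boxes. The window of Serpine2 held 6 GC boxes, that of Lrp1 held 1 on the minus strand of the gene, and that of Serpinf1 held no match to any of the motifs. The CRE and TEAD letters were in none of the 6 windows of the 5 genes. Of all 32851 windows of 300 bases, 7.81% held the AP-1 letters, 13.6% the TATA box, 35.7% the GC box, 14.7% the TEAD core and 1.79% the CRE letters. The match of letters in a window is a description of the sequence and was not tested as a site of binding.

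Stretched and control libraries were compared with limma, two-sided, on log2(FPKM + 0.5) for all 11593 genes, with Benjamini-Hochberg adjustment. The thresholds were those of the methods, and differential expression required a log2 fold change of 1 or more in size together with an adjusted p no higher than 0.05. The activator Plau and the inhibitors Serpinb2 and Serpine2 rose in the 4H group, Serpinf1 fell, and all 4 were differentially expressed. Plaur and Plat rose and Lrp1 fell by less than this fold threshold. Of the 7 genes, 4 were differentially expressed, where the share over all genes tested was 3.88% (2.61% higher and 1.28% lower). The adjusted p alone was past 0.05 for all 7, 5 higher and 2 lower, where the share over all genes was 46.7% (22.6% higher and 24.1% lower), and the groups did not overlap in any of the 7, which held for 56.7% of all genes. The median absolute log2 fold change was 1.10 for the 7 genes and 0.19 for all genes tested. The 7 genes were chosen with earlier results of these data known. The counts and medians set beside those of all genes are therefore a description with no test. In these bulk libraries, fewer cells with a transcript and less of it in each cell cannot be told apart.

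**Figure D1:**
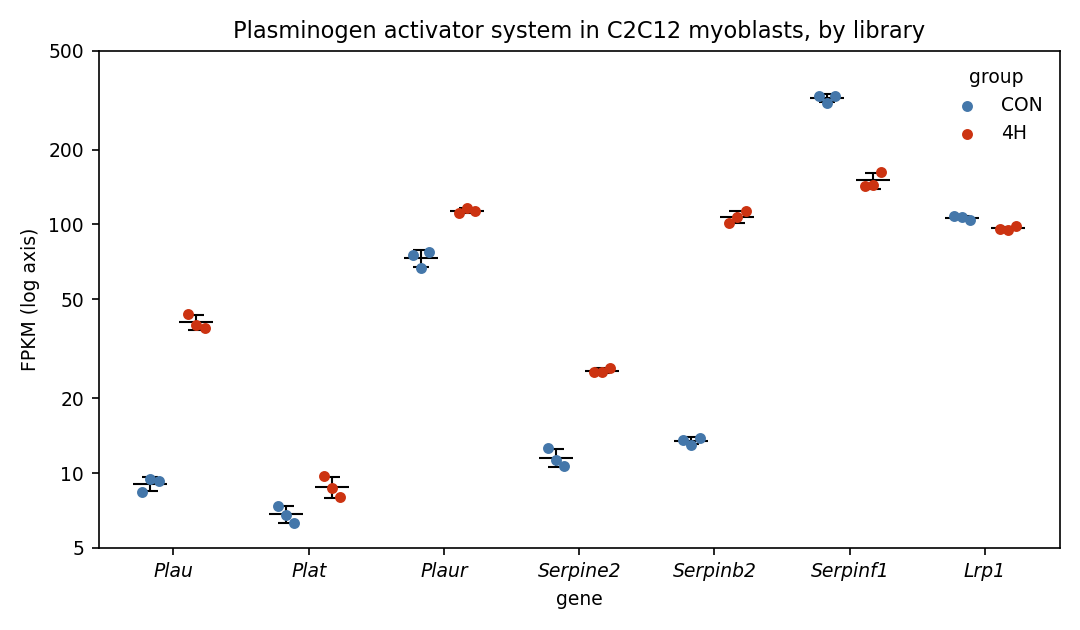
FPKM of the 7 genes in each library on a log axis, with CON libraries in blue, 4H libraries in red, and bars for the mean and SD of 3 libraries. Plau and Serpinb2 show the widest gaps between the groups, Serpinf1 and Lrp1 are lower in the 4H group, and the groups do not overlap in any of the 7 genes.

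Plau (ENSMUSG00000021822, chr14:20836660-20843385 on the plus strand in mm10), the gene of urokinase, read 8.42, 9.46 and 9.30 FPKM across the CON replicates and 43.7, 39.4 and 38.4 FPKM across the 4H replicates. Every stretched library thus lay far above every control library, while the spread within a group was small beside this gap. Means were 9.06 ± 0.56 and 40.5 ± 2.83 FPKM (SD, n = 3 libraries each), respectively, a ratio of 4.47. On the log2 scale the rise was 2.10 with a standard error of 0.07 and an adjusted p of 1.99e-07 by limma, and 51 of all genes tested had a larger absolute one. In the order of mean FPKM over all rows, Plau moved from place 6840 in the CON group to place 1781 in the 4H group.

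Plat (ENSMUSG00000031538, chr8:22757727-22782844, plus strand), the gene of tissue plasminogen activator, had the lowest level of the 7 genes in both groups. It read 7.38, 6.76 and 6.30 FPKM across the CON replicates and 9.70, 8.73 and 7.98 FPKM across the 4H replicates. The groups did not overlap, but the lowest 4H library lay close to the highest CON library. Plat rose from 6.81 ± 0.54 to 8.80 ± 0.86 FPKM (SD, n = 3 each), which limma put at 0.35 on the log2 scale (95% confidence interval 0.14 to 0.55) with an adjusted p of 0.0127. Of all genes tested, 26.2% had a larger absolute log2 fold change. The ratio of Plau to Plat was 1.14, 1.40 and 1.48 in the CON libraries and 4.50, 4.50 and 4.81 in the 4H libraries, so Plau was a little above Plat in control cells and far above it in every stretched library.

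Plaur (ENSMUSG00000046223, chr7:24462484-24475968, plus strand), the gene of the receptor that holds urokinase at the cell surface, was already abundant in control cells. Its FPKM was 75.2, 66.7 and 77.3 in the CON libraries and 111, 116 and 114 in the 4H libraries, and CON replicate 2 lay below the other CON libraries. Plaur rose from 73.1 ± 5.59 to 113.7 ± 2.49 FPKM (SD, n = 3 each), which limma put at 0.64 on the log2 scale (standard error 0.05) with an adjusted p of 3.79e-05. Plau rose by more than its receptor, and the ratio of Plau to Plaur was 0.125 ± 0.015 in the CON group and 0.356 ± 0.032 in the 4H group (SD, n = 3 each). Urokinase transcripts stayed below receptor transcripts in every library.

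Serpinb2 (ENSMUSG00000062345, chr1:107511423-107535478, plus strand), the gene of plasminogen activator inhibitor 2, an inhibitor of urokinase that is largely kept inside the cell, had the largest change of the 7 genes. It read 13.6, 13.0 and 13.9 FPKM across the CON replicates and 102, 107 and 113 FPKM across the 4H replicates. All 3 stretched libraries stood far above the control libraries, which were nearly level with each other. The mean went from 13.5 ± 0.46 to 107.4 ± 5.70 FPKM (SD, n = 3 each), a ratio of 7.97, which limma put at 2.95 on the log2 scale (standard error 0.05) with an adjusted p of 1.73e-08. Only 5 of all genes tested had a larger absolute log2 fold change, and Serpinb2 moved from place 5385 to place 536 in the order of mean FPKM. In GENCODE M21, Serpinb2 shares exons on its strand with Serpinb10, and 9.0% of its 75-base stretches recur there. Serpinb10 was at 0.414 FPKM or less in every library.

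Serpine2 (ENSMUSG00000026249, chr1:79794197-79861180, minus strand), the gene of protease nexin-1, a secreted inhibitor of thrombin, urokinase and plasmin, was at 12.6, 11.3 and 10.7 FPKM in the CON libraries. It was at 25.5, 25.5 and 26.4 FPKM in the 4H libraries, which were tighter than the CON libraries and all above them. Serpine2 rose from 11.5 ± 0.96 to 25.8 ± 0.54 FPKM (SD, n = 3 each), which limma put at 1.13 on the log2 scale (95% confidence interval 0.99 to 1.28) with an adjusted p of 3.36e-06. The interval reached just below the fold threshold. Serpinb2 and Serpine2 lay close together in control cells, with a ratio of 1.18 ± 0.11, and Serpinb2 was the higher by 4.16 ± 0.15 times in stretched cells (SD, n = 3 each).

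Serpinf1 (ENSMUSG00000000753, chr11:75409769-75422701, minus strand) encodes PEDF, a secreted serpin that does not inhibit proteases and is known as an inhibitor of angiogenesis. It read 329, 309 and 329 FPKM across the CON replicates and 143, 145 and 163 FPKM across the 4H replicates. Every 4H library lay far below the CON libraries, and 4H replicate 3 was the highest of its group. Serpinf1 fell from 322.4 ± 11.9 to 150.5 ± 11.2 FPKM (SD, n = 3 each), a ratio of 0.467, which limma put at -1.10 on the log2 scale (95% confidence interval -1.22 to -0.98) with an adjusted p of 1.74e-06. As with Serpine2, the interval reached across the fold threshold. Serpinf1 still had the highest FPKM of the 7 genes in both groups. Its neighbour in the same clade, Serpinf2, the gene of α2-antiplasmin, stayed below the filter, at a mean of 0.263 FPKM in the 4H group.

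Lrp1 (ENSMUSG00000040249, chr10:127538161-127621148, minus strand), the endocytic receptor that clears protease and serpin complexes, changed least. It read 108, 107 and 105 FPKM across the CON replicates and 96.3, 95.4 and 98.2 FPKM across the 4H replicates, so the groups were apart but close. Lrp1 fell from 106.5 ± 1.80 to 96.6 ± 1.45 FPKM (SD, n = 3 each), which limma put at -0.14 on the log2 scale (95% confidence interval -0.21 to -0.07) with an adjusted p of 0.00454. The value was -0.23 with trends on length and GC content removed, outside this interval, and -0.08 after quantile normalization (limma adjusted p = 0.0436). Of all genes tested, 60.6% had a larger absolute log2 fold change.

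**Figure D2:**
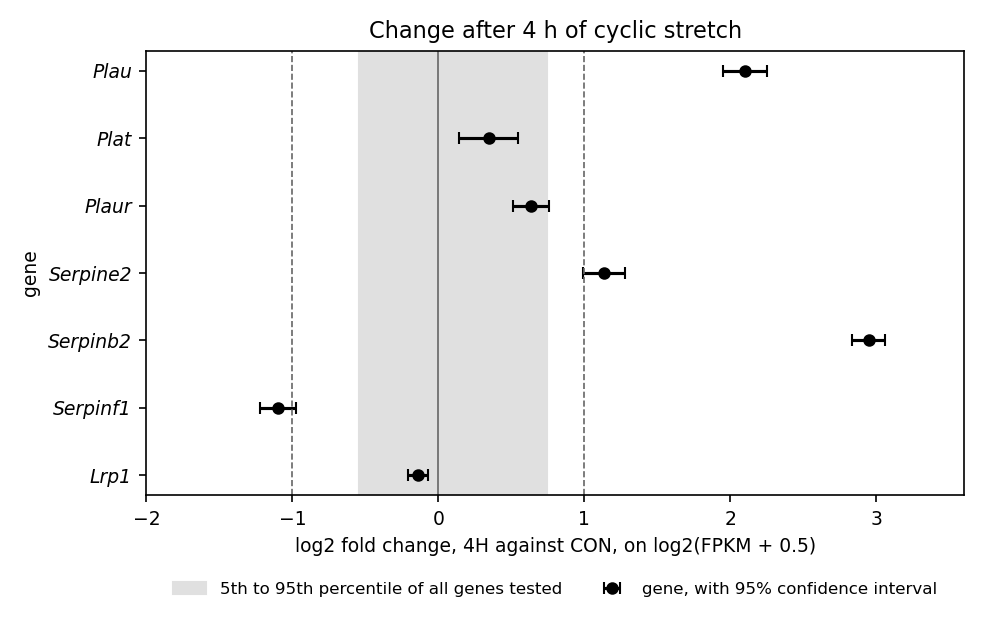
Log2 fold change of the 7 genes, 4H against CON, on log2(FPKM + 0.5), with 95% confidence intervals from limma, dashed lines at the fold threshold, and a grey band for the 5th to 95th percentile of all genes tested (-0.55 to 0.74). Plau, Serpinb2, Serpine2 and Serpinf1 lie outside the band, and Plaur, Plat and Lrp1 inside it.

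Because FPKM is scaled by length, levels can be set beside each other within a library. In the CON group, the order from high to low was Serpinf1, Lrp1, Plaur, Serpinb2, Serpine2, Plau and Plat, and no neighbours in this order overlapped. In the 4H group, the order was Serpinf1, Plaur, Serpinb2, Lrp1, Plau, Serpine2 and Plat. Plaur and Serpinb2 overlapped there across libraries, while the other neighbours did not overlap. Within each 4H library Plaur was above Serpinb2, by little in 4H replicate 3 (113.6 and 113.2 FPKM). The summed FPKM of the 7 genes was 542.9 ± 17.3 in the CON group and 543.3 ± 15.7 in the 4H group (SD, n = 3 each), so the groups overlapped in the sum while its makeup differed. Serpinf1 made up 59.4 ± 0.35% of this sum in the CON group and 27.7 ± 1.24% in the 4H group. Serpinb2 went from 2.48 ± 0.03% to 19.8 ± 0.54%, Plaur from 13.4 ± 0.64% to 20.9 ± 0.69%, and Plau from 1.67 ± 0.15% to 7.46 ± 0.70%.

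**Figure D3:**
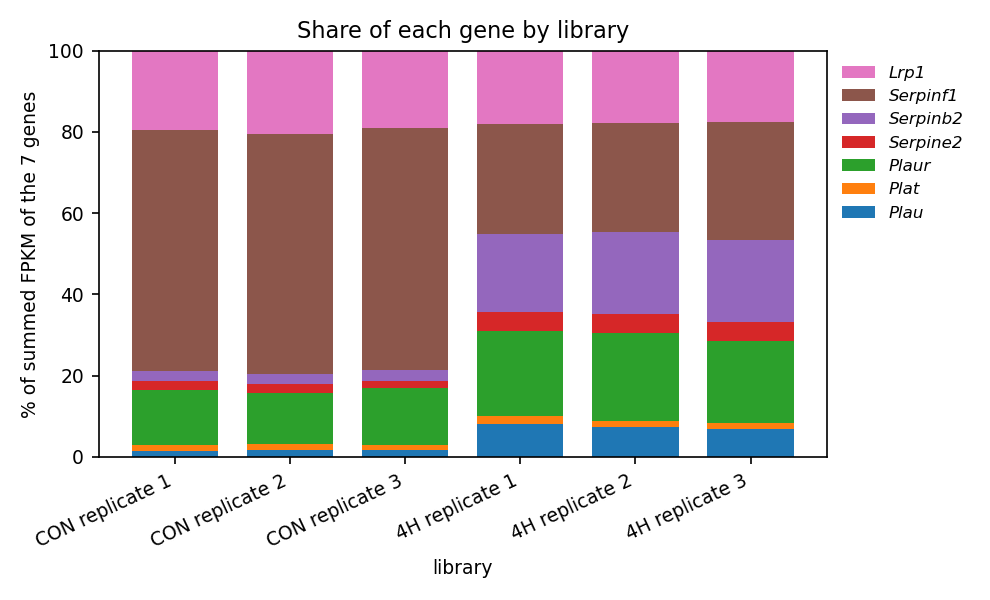
Share of each of the 7 genes in their summed FPKM, in percent, stacked for each of the 6 libraries. The share of Serpinf1 shrinks from 59.4% to 27.7% on average, while those of Serpinb2, Plaur, Serpine2, Plau and Plat are larger in every 4H library, and that of Lrp1 is smaller, at 17.5% to 18.1% against 19.0% to 20.5%.

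Plau and Plat were also summed as activators, and Serpine2 and Serpinb2 as inhibitors. The sum of Plau and Plat went from 15.9 ± 0.31 to 49.3 ± 3.67 FPKM (SD, n = 3 each), while the sum of Serpine2 and Serpinb2 went from between 24.3 and 26.1 FPKM to between 127.3 and 139.6 FPKM. The ratio of the Serpine2 and Serpinb2 sum to the Plau and Plat sum was 1.58 ± 0.08 in the CON group (SD, n = 3) and 2.38, 2.76 and 3.01 in the 4H replicates. The inhibitors differed in this. The ratio of Serpinb2 to Plau went from 1.49 ± 0.12 to 2.67 ± 0.31, while that of Serpine2 to Plau went the other way, from 1.28 ± 0.19 to 0.640 ± 0.053 (SD, n = 3 each). The ratio of the sums, chosen after the values were seen, is a description with no test. Transcript ratios do not give the activity of the proteins, which was not measured here.

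Among the other genes of the system, a list of 45 by role, 25 passed the filter, and 10 of them rose, 5 fell and 10 did not pass an adjusted p of 0.05, where 22.6% of all genes tested were higher and 24.1% lower. Of these 25 genes, 2 were differentially expressed, Itgb3 and Vldlr, where the share over all genes tested was 3.88%, and the median log2 fold change was 0.01 against -0.01 for all genes tested. The number differentially expressed was 3 with no filter, with a pseudocount of 0.1 or with TPM, settings under which the number over all genes went from 450 to 488, 591 and 703, respectively. Plasminogen itself (Plg) was listed at 0 in all 6 libraries, as were vitronectin (Vtn) and the fibrinogen chains (Fga, Fgb and Fgg). Of the 4 surface binders of plasminogen tested, 2 rose. Anxa2, which forms a plasminogen and tPA binding complex with S100a10, rose from 733.0 ± 19.3 to 1036 ± 2.36 FPKM (0.50 on the log2 scale, limma adjusted p = 2.68e-06), and S100a10 from 343.6 ± 12.2 to 416.2 ± 8.21 FPKM (0.28 on the log2 scale, limma adjusted p = 0.000228). Eno1, a glycolytic enzyme that also binds plasminogen, and the plasminogen receptor gene Plgrkt did not pass the test (adjusted p = 0.710 and 0.146).

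Of the 3 other inhibitors tested, Serping1 was higher, Serpinb6a fell and Serpinb8 did not pass the test. Serping1, the gene of C1 inhibitor, read 0.405, 0.612 and 0.201 FPKM across the CON replicates and 0.739, 0.947 and 1.05 FPKM across the 4H replicates, and passed the filter only through the 4H group (0.66 on the log2 scale, limma adjusted p = 0.0245). Its adjusted p was 0.0757 without 4H replicate 3, 0.0633 without 4H replicate 2, 0.0711 without CON replicate 3 and 0.0555 without CON replicate 1. The fall of Serpinb6a, -0.12 on the log2 scale, was -0.01 after quantile normalization (limma adjusted p = 0.819). Among partners of the receptor uPAR, Itgb3, the integrin β3 chain that binds uPAR and vitronectin, rose from 2.29 ± 0.15 to 13.9 ± 0.38 FPKM (2.37 on the log2 scale, limma adjusted p = 1.37e-07). Itgb5, the β5 chain of another vitronectin receptor, fell from 35.8 ± 2.65 to 23.5 ± 1.21 FPKM (-0.60 on the log2 scale, limma adjusted p = 0.000114).

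The relatives of Lrp1 were divided. Vldlr, a receptor that also takes up urokinase and serpin complexes, read 10.2, 11.7 and 10.5 FPKM across the CON replicates and 1.19, 0.941 and 1.02 FPKM across the 4H replicates. Its log2 fold change was -2.86 (adjusted p = 2.62e-07 from limma), against -0.14 for Lrp1, and the groups were far apart. Lrp5, a Wnt co-receptor of the same family, rose by 0.27 on the log2 scale (limma adjusted p = 0.00414), and the chaperone gene Lrpap1 did not pass the test (adjusted p = 0.883). Among proteins cleaved by the system, Hgf, a growth factor of satellite cells that urokinase can activate, rose from 8.46 ± 0.87 to 14.1 ± 1.96 FPKM (0.70 on the log2 scale, limma adjusted p = 0.00114). Pdgfc fell from 15.4 ± 0.87 to 9.34 ± 0.38 FPKM (-0.69 on the log2 scale, limma adjusted p = 4.60e-05). Of the genes around coagulation, thrombomodulin (Thbd), a receptor that turns thrombin toward the anticoagulant protein C, rose from 15.5 ± 0.20 to 26.5 ± 0.72 FPKM (0.76 on the log2 scale, limma adjusted p = 3.36e-06). The receptor gene of protein C in the same anticoagulant pathway, Procr, rose from 7.54 ± 0.70 to 12.5 ± 0.88 FPKM (0.70 on the log2 scale, limma adjusted p = 0.000235), while F3, the gene of tissue factor that starts coagulation, its inhibitor gene Tfpi and the thrombin receptor gene F2r did not pass the test (adjusted p = 0.961, 0.435 and 0.531).

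**Figure D4:**
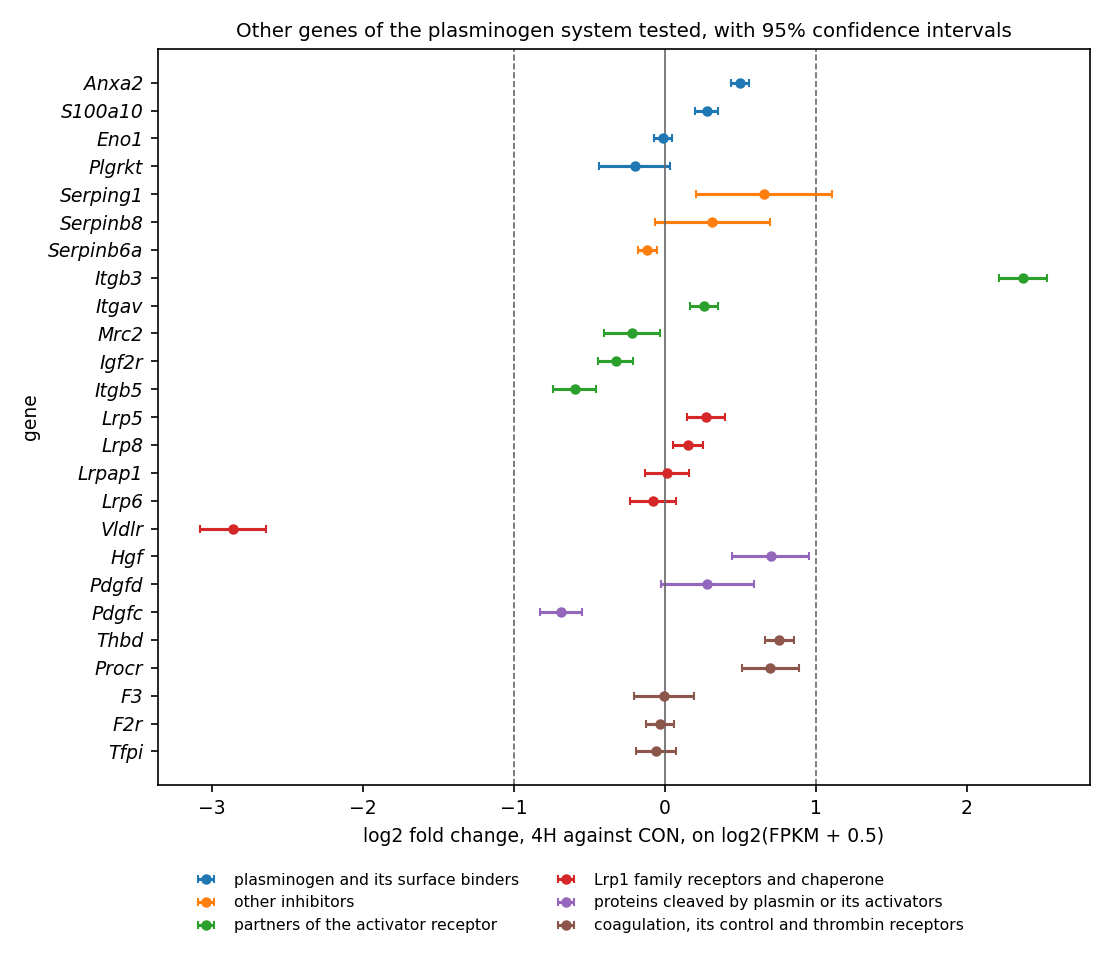
Log2 fold change, 4H against CON, of the 25 other genes of the system that passed the filter, coloured by role, with 95% confidence intervals from limma and dashed lines at the fold threshold. Itgb3 lies above the upper line and Vldlr below the lower line, and the other 23 lie between them.

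The 3 serpin genes were also set beside 59 other serpin genes of the table, of which 16 were listed at 0 in all libraries and 16 passed the filter. Of the latter, 4 rose, 8 fell and 4 did not pass an adjusted p of 0.05, and 2 were differentially expressed, Serpinb9 and Serpinb9c, where the shares over all genes tested were 22.6% higher, 24.1% lower and 3.88% differentially expressed. Serping1 and Serpinb1c, among those that rose, averaged under 0.5 FPKM in the CON group and passed the filter only through the 4H group. The 12 that changed were 7 without 4H replicate 3 and likewise without CON replicate 1. Serpinb2 thus had the largest rise of these 19 serpin genes tested, and Serpinf1 lay near the lower end. Serpinb2 is 1 of 12 clade B genes on chromosome 1, and the others reached at most 6.43 FPKM in any library, the level of Serpinb8. In 9 of these 11 genes, every library was below 0.5 FPKM, and Serpinb7, the gene next upstream of Serpinb2, rose from 0.827 ± 0.28 to 1.60 ± 0.43 FPKM (0.66 on the log2 scale, limma adjusted p = 0.0275). Of the 12 clade B genes tested on chromosome 13, 2 rose and 7 fell, against the same shares over all genes. Serpinb9, an inhibitor of granzyme B, fell from 29.5 ± 1.79 to 11.2 ± 0.22 FPKM (-1.35 on the log2 scale, limma adjusted p = 6.56e-07). Of its paralogs, Serpinb9c, d, e and g also fell, but 16.8% to 44.9% of their 75-base stretches recur in other genes, so their values are uncertain, and with a pseudocount of 1 the log2 fold change of Serpinb9c was -0.90, short of the fold threshold. Serpinb9b, the paralog with the highest FPKM, shares none of these stretches and did not pass the test, at 56.1 ± 1.49 and 54.3 ± 1.66 FPKM (-0.05 on the log2 scale, limma adjusted p = 0.349). Serpinh1, the collagen chaperone, fell from 272.7 ± 10.9 to 203.8 ± 3.67 FPKM (-0.42 on the log2 scale, limma adjusted p = 3.12e-05).

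**Figure D5:**
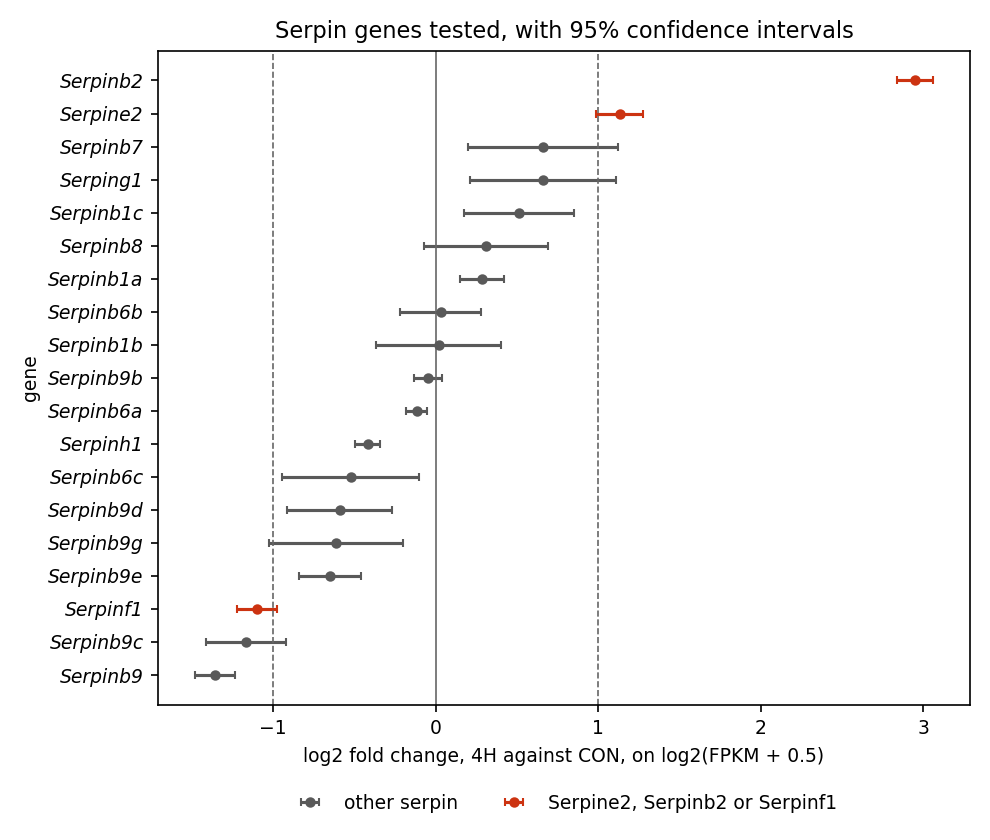
Log2 fold change, 4H against CON, of 19 serpin genes that passed the filter, with 95% confidence intervals from limma, Serpine2, Serpinb2 and Serpinf1 in red and dashed lines at the fold threshold. Serpinb2 and Serpine2 lie at the top, above 1, and Serpinf1, Serpinb9c and Serpinb9 at the bottom, below -1.

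The genes with the most similar profile were sought by the root mean square distance of mean-centred log2(FPKM + 0.5) values over the 6 libraries, among the 8584 genes that averaged 5 FPKM or more. This measure joins genes of like size and direction of change and says nothing of shared control. The choice fixes their direction, so their values are a description with no test, and Has2, Adam8 and Krt13 averaged under 5 FPKM in the CON group and passed this minimum through the 4H group. For Plau they were Thbs1, H1f2 and Has2, at distances of 0.062 to 0.068. Thbs1, a matricellular protein, went from 44.1 ± 3.27 to 181.9 ± 2.00 FPKM, and Has2, a hyaluronan synthase, from 4.92 ± 0.03 to 23.3 ± 0.80 FPKM. For Serpine2 they were Gper1, Adam8 and Ptgs2 (0.042 to 0.055), of which Ptgs2, the inducible cyclooxygenase, went from 85.6 ± 5.44 to 189.8 ± 5.94 FPKM. For Serpinb2 the nearest were Ccn2, Krt13 and Il33, but at larger distances of 0.173 to 0.216. Il33, an alarmin cytokine, went from 6.98 ± 0.50 to 42.9 ± 0.92 FPKM. For Serpinf1 they were Tbpl1, Mib2 and Scpep1 (0.025 to 0.056), and Scpep1, a serine carboxypeptidase, went from 198.7 ± 4.22 to 96.5 ± 3.40 FPKM.

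The libraries had summed FPKM of 395790 to 397260 in the CON group and 385146 to 387516 in the 4H group. The number of fragments is not held in FPKM, and the relative depth, from the steps between values under 0.1 FPKM, differed by at most 1.58% over 15 pairs of libraries. Of the myoblast markers, Myod1, Itga7, Cdh15 and Des rose, Myf5 fell from 15.8 ± 0.85 to 9.82 ± 1.13 FPKM (-0.67 on the log2 scale, limma adjusted p = 0.000347), Ncam1 did not pass the test (adjusted p = 0.635) and Pax7 was below the filter. The 7 markers summed to 176.7 to 183.2 FPKM in control cells and 250.3 to 262.6 FPKM in stretched cells, a sum made up mostly of Des and Itga7. The 5 markers of differentiated muscle were low and summed to 1.18 to 2.05 FPKM in control cells and 2.15 to 2.74 FPKM in stretched cells. Of these, Acta1 rose (0.59 on the log2 scale, limma adjusted p = 0.0235), and Myog, below the filter, averaged 0.217 and 0.026 FPKM. Serpinb2 and Plau are also genes of activated macrophages. The 6 macrophage markers summed to 17.1 to 20.4 FPKM in control cells and 32.3 to 36.0 FPKM in stretched cells, mostly Cd68 and Cd14, which many cells express. On the log2 scale, Cd68 rose by 1.07 (limma adjusted p = 4.11e-05), which made it differentially expressed, and Cd14 by 0.51 (limma adjusted p = 0.000985). The defining markers Ptprc and Adgre1 were listed at 0 in all 6 libraries, Itgam reached at most 0.025 FPKM, and Csf1r was at most 0.027 FPKM in the CON libraries and 0.792 to 1.48 FPKM in the 4H libraries. Csf1r, which passed the filter only through the 4H group, was differentially expressed (1.61 on the log2 scale, limma adjusted p = 0.000231). The part of these marker genes in the results above was not tested. The 5 endothelial markers summed to 0.101 to 0.122 FPKM in control cells and 0.254 to 0.387 FPKM in stretched cells, each was below 0.5 FPKM in every library, and Tie1 was at 0.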

How the data were processed

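RNA-seq of C2C12 myoblasts was analysed in 3 CON and 3 4H libraries, grouped by the labels. The 4H libraries titled 4H1, 4H3 and 4H4 are called 4H replicates 1, 2 and 3, the numbers of their descriptions. Libraries were poly(A) selected, strand-specific and paired-end. The authors deposited 1 table of FPKM values with 1 column per library. The submitters' processing notes name the build mm10, while the sources used here give no aligner, counter or annotation. Gene coordinates came from GENCODE M21 and promoters from RefSeq, both on GRCm38.

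FPKM is normalized, so limma 3.58.1 in R 4.3.3 (lmFit, eBayes with a trend) was run on log2(FPKM + 0.5) for genes that averaged 0.5 FPKM or more, without a replicate block, in place of the count model (DESeq2) of the study. Fold changes on this scale understate the change of low genes. FPKM holds no counting depth, so the precision rests on the spread of 3 libraries, called biosamples by the labels, which do not say whether they were separate cultures, so p-values measure the spread between these libraries, which may be technical. With 3 libraries per group, the smallest two-sided p of an exact permutation test is 0.1, so none was run. On data simulated for 4H against CON, with 200 of 11593 genes changed, 95.0% of the changed genes were recovered and 5.94% of the calls were false. In the libraries themselves, 5409 of the 11593 genes passed an adjusted p of 0.05. Whether the 95.0% and 5.94% hold for the libraries was not tested. No libraries had identical columns. The replicate numbers of the labels did not pair the samples.

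The 7 genes, the lists and the tests were chosen with earlier results of these data known. Named genes were the 7, every differentially expressed gene and the 2 lowest adjusted p in each role of the pathway list, every differentially expressed serpin, and the 3 nearest profiles of each differentially expressed gene of the 7. Other genes were named after their values were seen, and some genes of the system are not reported here. Alternatives were pseudocounts of 0.1 and 1, no filter and a filter at 1 FPKM, a replicate block, no trend, rescaling to TPM, median-of-ratios and quantile scaling, removal of trends on length and GC content, and each library left out.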

Additional observations from a re-analysis of the deposited data

How the results depend on the processing

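All 7 genes kept their direction and stayed past an adjusted p of 0.05 under each of the 16 alternatives, and 4 of them were differentially expressed under each. With the replicate block the log2 fold changes were as without it (Serpinb2 2.95) and the adjusted p ranged from 5.36e-06 for Serpinb2 to 0.0192 for Lrp1. Same-numbered samples had correlations of deviations of 0.025, -0.093 and -0.126. By the titles, CON replicate 3 shares its number with 4H replicate 2, with a correlation of 0.176, the highest of the 9 pairs. The numbers were taken as names only. With each library left out, the log2 fold change was 2.04 to 2.14 for Plau, 0.28 to 0.41 for Plat, 0.57 to 0.68 for Plaur, 1.08 to 1.19 for Serpine2, 2.91 to 2.99 for Serpinb2, -1.16 to -1.07 for Serpinf1 and -0.15 to -0.13 for Lrp1. Plat came nearest to losing its call, with an adjusted p of up to 0.0463 (without CON replicate 3). Lrp1 varied most with the scaling, from -0.23 with trends on length and GC content removed to -0.08 with quantile normalization (adjusted p = 0.0436).

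The number of other serpins past an adjusted p of 0.05 was 12 and ranged from 7 to 12 with a library left out, and was 7 without 4H replicate 3 and likewise without CON replicate 1. Serpinb6a was no longer past it with quantile normalization (-0.01, adjusted p = 0.819) or without a trend (adjusted p = 0.0574), nor was Serping1 with quantile normalization (adjusted p = 0.0652) or with 4 of the 6 libraries left out in turn. With a pseudocount of 1, 1 of the other serpins was differentially expressed in place of 2, and with a pseudocount of 0.1 there were 3, since Serping1 reached 1.07 on the log2 scale. Over all genes, 450 were differentially expressed, 703 with libraries rescaled to TPM, 591 with a pseudocount of 0.1, 347 with a pseudocount of 1 and 488 with no filter. Rescaling to TPM raised all values while the pseudocount and the filter stayed at 0.5, and 12457 genes were tested in place of 11593. The part of this in the higher number with TPM was not tested. Genes with a mean below 0.5 FPKM, among them 20 of the 45 pathway genes, were not tested in the main fit. The fit with no filter took in those above 0 in any library. There F2rl2 was differentially expressed (1.01 on the log2 scale, limma adjusted p = 9.33e-05). F2rl1, Serpinf2 and Serpini1 also passed an adjusted p of 0.05 in that fit, and the others did not. The values of these genes are near the floor.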

Other observations

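Of the 13 pathway genes below the filter on mean FPKM that were above 0 in any library, 4 had groups that did not overlap, all higher in the 4H group, and they are given as values, chosen after these were seen. Over all 4983 genes of this kind, 16.9% were higher without overlap in the 4H group and 3.37% lower, and the 4H libraries had 14899 to 14972 genes above 0 against 14125 to 14186 in the CON libraries. F2rl2, a thrombin receptor, read 0.047, 0.070 and 0.118 FPKM across the CON replicates and 0.690, 0.632 and 0.673 FPKM across the 4H replicates. F2rl1, a receptor activated by trypsin-like proteases, was listed at 0 in all CON libraries and was at 0.231, 0.285 and 0.217 FPKM in the 4H libraries. F2r, the main thrombin receptor of these cells by FPKM, was at 63.9 ± 2.88 and 62.4 ± 1.26 FPKM (SD, n = 3 each). The inhibitor genes Serpinf2 and Serpini1, the gene of neuroserpin, a tPA inhibitor, were also higher in every 4H library, at means of 0.263 and 0.214 FPKM, against at most 0.042 and 0.127 FPKM in the CON libraries. F2rl3, another thrombin receptor below the filter, averaged 0.033 FPKM in control cells and 0.026 FPKM in stretched cells, and its groups overlapped, as did those of the other 8 of the 13 genes. At such levels a few fragments set each value, and the number of fragments is unknown.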
